A study of Homo sapiens with 4 samples.

Results

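DEAD and DEAH box RNA helicases were followed in U2OS cells, a human osteosarcoma line, after depletion of BRPF3, a scaffold protein of histone acetyltransferase complexes. Members were the protein-coding genes named DDX or DHX with a number, together with the EIF4A genes, leaving out the RNA sensor DHX58 and its relative formerly called DDX58. Of 14884 genes named on the arrays 47 were members, measured by 54 of 53617 probe sets. RefSeq holds 56 genes that meet the same rule, and the other 9, EIF4A1 and EIF4A2 among them, were not analysed here. One group of 2 arrays was of cells given BRPF3 siRNA and the other of 2 arrays was of cells given a scrambled control siRNA, each transfected at 50 nM and harvested after 48 hours. The comparison asked which helicase transcripts differed in abundance after BRPF3 depletion.

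These helicases share an ATPase core that binds RNA and, fuelled by ATP, separates short duplexes, remodels RNA-protein complexes or clamps onto RNA as an assembly platform. The family names come from a conserved motif of the core, spelled Asp-Glu-Ala-Asp (DEAD) or Asp-Glu-Ala-His (DEAH) in the amino acid letters. DEAD box proteins act locally on short duplexes, whereas DEAH box proteins move along RNA and are often switched on by cofactors that carry a G-patch domain. Between them they act at nearly every step in the life of an RNA, from transcription and splicing through ribosome assembly and export to translation and decay.

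Values are log2 signals of a probe set as normalized by the authors, so a difference of 1 is a doubling, and all differences are BRPF3 siRNA minus control siRNA, given with the SE from limma after moderation (2 arrays in each group). Levels of different genes were not compared, since each probe set has its own brightness. The siRNA target was not checked, because no probe set is named for BRPF3 here, and 1 siRNA treatment cannot tell depletion from other effects of that siRNA. The labels call the arrays biological replicates without saying how separate the cultures were, so a p-value here reflects only the scatter among these 4 arrays, whose number limits the precision. Between the arrays of a group the members' values differed with an SD of 0.12 for BRPF3 siRNA and 0.12 for control siRNA. Fewer cells of a kind and less RNA per cell cannot be told apart in such bulk samples. Of 5 osteoblast markers measured, RUNX2, SP7 and SPP1 had a mean over the 4 arrays above the intensity bound of 4.59 used for testing and IBSP and TWIST1 did not. SP7 read 4.55 and 4.59 after BRPF3 siRNA, against 4.95 and 4.56 after control siRNA, so its mean passed through 1 control siRNA array.

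After BRPF3 siRNA, 10 of the 44 helicase transcripts bright enough to be tested fell by small amounts, 0 rose and 34 did not pass the test (limma, Benjamini-Hochberg adjusted p under 0.05 over 10696 genes). That is 22.7% of the tested members fallen, where 9.44% of all tested genes fell, and 0 risen where 6.32% of all tested genes rose. The count of fallen members was 4 under quantile or cyclic loess normalization and 0 without either control siRNA array. The fallen members were DHX33, DHX29, DHX32, DDX1, DDX19A, DDX49, DHX15, DHX9, DDX52 and DHX35. Of these 6 are DHX genes (40.0% of 15 tested) and 4 are DDX genes (13.8% of 29 tested DDX and EIF4A members). These shares were not tested against each other. The differences of the fallen members ran from -0.66 to -0.32, which left 63.4% to 80.0% of the control level. The difference was below 0 for 40 of the 44 tested members, against 55.1% of all tested genes, and its median was -0.27, against -0.03 over all tested genes and -0.04 over the 9492 tested protein-coding genes.

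Of the fallen genes with a single window in the RefSeq promoter table (GRCh38.p14), the 5 with the largest differences were taken. Their upstream sequences are shown as examples, chosen by calls in these same data. Each is the 250 bases before the annotated gene start, 5′ to 3′ on the gene's strand, and capitals mark matches on either strand to the motifs searched: the ETS core CCGGAA, the E-box CACGTG, the CCAAT box and the GC box GGGCGG.
DHX29, chr5:55307695-55307944, strand -: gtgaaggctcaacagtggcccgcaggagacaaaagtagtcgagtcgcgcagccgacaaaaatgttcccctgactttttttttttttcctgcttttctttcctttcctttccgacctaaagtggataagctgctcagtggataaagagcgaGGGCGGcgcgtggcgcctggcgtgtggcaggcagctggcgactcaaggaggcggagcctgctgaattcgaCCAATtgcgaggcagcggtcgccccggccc
DHX32, chr10:125881293-125881542, strand -: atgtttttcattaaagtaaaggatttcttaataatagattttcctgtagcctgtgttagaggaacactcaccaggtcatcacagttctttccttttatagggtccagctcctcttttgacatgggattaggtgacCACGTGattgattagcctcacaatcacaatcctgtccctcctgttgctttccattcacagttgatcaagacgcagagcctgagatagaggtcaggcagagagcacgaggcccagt
DDX1, chr2:15591618-15591867, strand +: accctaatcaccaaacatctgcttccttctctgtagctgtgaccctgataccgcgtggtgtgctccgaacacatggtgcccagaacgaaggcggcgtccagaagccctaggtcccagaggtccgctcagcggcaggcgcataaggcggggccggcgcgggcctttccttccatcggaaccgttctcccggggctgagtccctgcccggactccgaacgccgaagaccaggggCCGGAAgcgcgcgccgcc
DDX19A, chr16:70346653-70346902, strand +: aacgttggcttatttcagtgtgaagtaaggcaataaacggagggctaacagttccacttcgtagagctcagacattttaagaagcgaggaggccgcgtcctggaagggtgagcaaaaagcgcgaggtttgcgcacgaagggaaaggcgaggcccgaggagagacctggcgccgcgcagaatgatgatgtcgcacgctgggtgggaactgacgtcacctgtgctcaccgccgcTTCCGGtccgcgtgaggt
DHX15, chr4:24584555-24584804, strand -: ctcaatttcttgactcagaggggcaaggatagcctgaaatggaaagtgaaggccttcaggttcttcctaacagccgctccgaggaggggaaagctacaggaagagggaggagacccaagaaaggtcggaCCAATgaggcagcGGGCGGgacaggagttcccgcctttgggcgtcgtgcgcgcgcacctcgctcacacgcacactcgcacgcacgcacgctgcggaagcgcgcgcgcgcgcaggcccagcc

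In the printed windows no matches overlap. DHX29 and DHX15 each carry a CCAAT box and a GC box, DHX32 carries an E-box, and DDX1 and DDX19A each carry an ETS core whose first base lies 18 bases before the start (position -18). No motif searched was in all 7 fallen genes with a window: the ETS core was in 2 of them, the E-box in 2, the CCAAT box in 3 and the GC box in 4. Over the 41 tested members with a window the ETS core was found in 19 (46.3%), against 27.6% of 7778 tested protein-coding genes with one. The E-box was found in 9 of the 41 (22.0%) against 11.1%, the CCAAT box in 21 (51.2%) against 40.7% and the GC box in 27 (65.9%) against 73.8%. These are matches of letters, not tested sites.

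**Figure D1:**
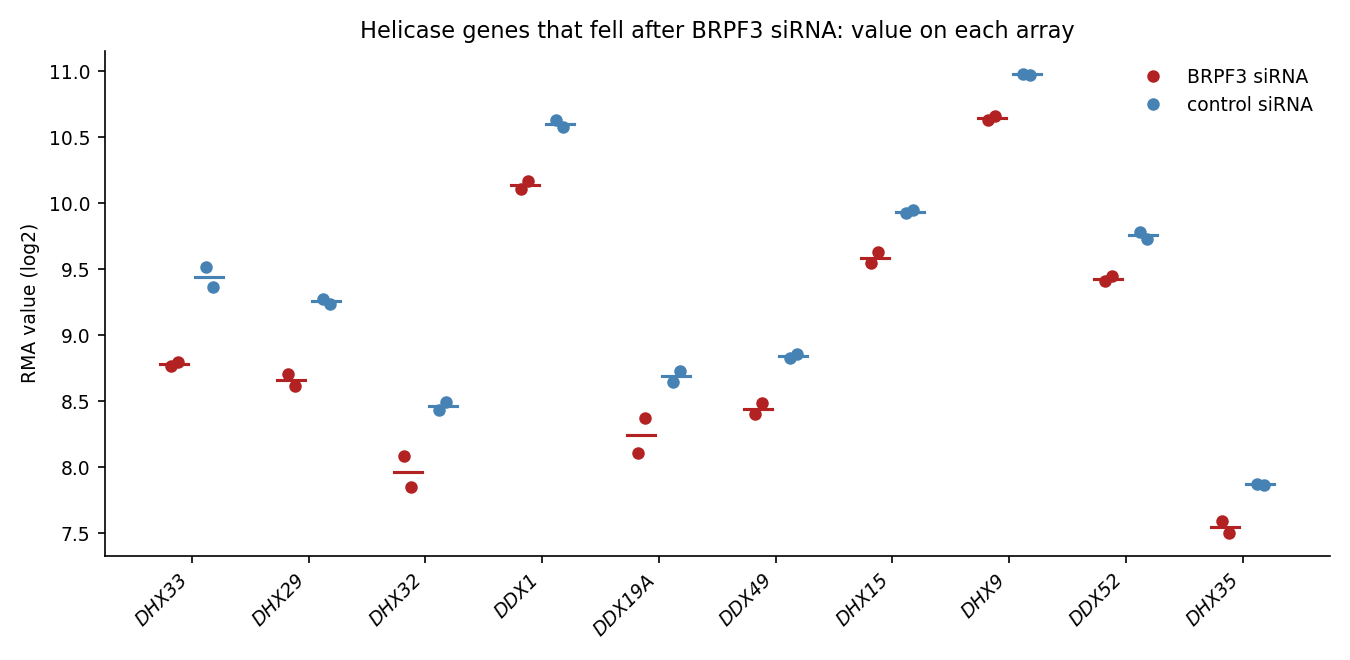
Values (RMA, log2, vertical axis) of the 10 helicase genes that fell, on each of the 2 BRPF3 siRNA arrays (red, left of each pair) and 2 control siRNA arrays (blue), with a line at each group's mean. For each gene both red points lie below both blue points, with DHX33 furthest apart (difference -0.66) and DHX35 least (-0.32).

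Among helicases of translation, DHX29 was the 1 member measured. DHX29 binds the small ribosomal subunit and helps it to scan structured leaders of mRNAs. It gave 8.71 and 8.62 on the BRPF3 siRNA arrays, against 9.27 and 9.24 on the control siRNA arrays. The gap between the groups was several times wider than the gap within either one. DHX29 fell 1.51-fold (-0.59 ± 0.08, 95% interval -0.79 to -0.39, adjusted p = 0.0148).

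Helicases of ribosome assembly work in the nucleolus, where they rearrange the precursor ribosomal RNA and release small nucleolar RNAs from it. Of 14 tested members of this kind 3 fell (21.4%, against 9.44% of all tested genes) and 0 rose. The difference was below 0 for each of the 14, against 55.1% of all tested genes, with a median of -0.29. DHX33, which takes part in ribosomal RNA synthesis, gave 8.77 and 8.80 after BRPF3 siRNA, against 9.52 and 9.36 after control siRNA. Its 2 BRPF3 siRNA arrays nearly coincided and its control siRNA arrays were further apart. DHX33 had the largest difference of the family, a fall of 1.58-fold (-0.66 ± 0.09, adjusted p = 0.0148).

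DDX49, a nucleolar helicase of ribosomal RNA processing, gave 8.40 and 8.48 after BRPF3 siRNA, against 8.82 and 8.86 after control siRNA, a fall of 1.32-fold (-0.40 ± 0.08, adjusted p = 0.0307). DDX52, related to a yeast factor of small subunit assembly (Rok1 in Saccharomyces cerevisiae), gave 9.41 and 9.45 after BRPF3 siRNA, against 9.78 and 9.73 after control siRNA, a fall of 1.25-fold (-0.33 ± 0.08, adjusted p = 0.0449). Both genes had tight pairs of arrays with no overlap. DHX37, which releases the U3 small nucleolar RNA during small subunit assembly, gave 6.95 and 7.12 after BRPF3 siRNA, against 7.37 and 7.41 after control siRNA. Its difference, -0.36 ± 0.09, just missed the threshold (adjusted p = 0.0526).

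DDX21, which couples RNA polymerase I transcription to ribosomal RNA processing, gave 11.07 and 11.24 after BRPF3 siRNA, against 11.44 and 11.46 after control siRNA, a difference of -0.30 ± 0.09 (adjusted p = 0.0764). Its neighbour and paralog DDX50 had a difference of -0.28 ± 0.08 (adjusted p = 0.0698). The pair is similar in sequence, and how far the probe sets tell them apart was not tested. The other 8 ribosome assembly members, DDX31, DDX56, DDX24, DDX55, DDX51, DDX10, DDX47 and DDX54, had differences from -0.37 to -0.04 and did not pass. DDX54 was the 1 member of the 14 whose arrays overlapped between groups. The other 13 had both BRPF3 siRNA arrays below both control siRNA arrays, as did 35.9% of all tested genes.

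Splicing helicases drive the rearrangements of the spliceosome, from entry of the small nuclear ribonucleoproteins to release of the mature mRNA and disassembly. Of 14 tested genes placed with splicing and pre-mRNA processing 4 fell and 0 rose, with a median of -0.16. The fallen share was 28.6%, against 9.44% of all tested genes. DHX15, which takes spent spliceosomes apart, gave 9.55 and 9.63 after BRPF3 siRNA, against 9.92 and 9.95 after control siRNA. The groups did not overlap, and DHX15 fell 1.27-fold (-0.35 ± 0.08, adjusted p = 0.0407).

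DHX9, also known as RNA helicase A, unwinds long duplexes and bridges transcription with RNA processing. It gave 10.63 and 10.66 after BRPF3 siRNA, against 10.98 and 10.97 after control siRNA, and fell 1.26-fold (-0.33 ± 0.08, adjusted p = 0.0415). The arrays of each group lay close together. DHX35, found in the catalytic spliceosome, gave 7.59 and 7.50 after BRPF3 siRNA, against 7.88 and 7.86 after control siRNA, and fell 1.25-fold (-0.32 ± 0.08, adjusted p = 0.0488). DHX32 was placed here although its role is not settled. It gave 8.08 and 7.85 after BRPF3 siRNA, against 8.43 and 8.49 after control siRNA, a fall of 1.41-fold (-0.50 ± 0.10, adjusted p = 0.0338), with a wider gap between the BRPF3 siRNA arrays than between the control siRNA arrays.

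Among DEAH box helicases of successive spliceosome steps, the 95% intervals of DHX38 (-0.48 to -0.08), DHX16 (-0.54 to 0.01) and DHX8 overlapped. DHX38, the human counterpart of yeast Prp16, which acts between the catalytic steps, differed by -0.28 ± 0.08 (adjusted p = 0.0718), and DHX16, the counterpart of Prp2, which activates the spliceosome, by -0.27 ± 0.11 (adjusted p = 0.152). DHX8, the counterpart of Prp22, which releases the spliced mRNA, differed by -0.05 ± 0.08 (95% interval -0.26 to 0.16). None of these 3 passed the test, and the differences between them were not tested. DHX16 lies in the major histocompatibility region and had 8 probe sets, 4 of them with identical values on each array, so they are not independent. Differences of the 8 ran from -0.27 to -0.20.

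The tested DEAD box helicases of splicing had differences from -0.16 to -0.04 and did not pass. Their 95% intervals reached as low as -0.37 (DDX41). DDX5 and its paralog DDX17 are abundant coregulators that act in transcription, splicing and microRNA processing. DDX5 gave 11.41 and 11.50 after BRPF3 siRNA, against 11.51 and 11.47 after control siRNA, with overlapping groups and a difference of -0.04 ± 0.08 (95% interval -0.24 to 0.16, adjusted p = 0.770) that turned to 0.07 under quantile and 0.06 under cyclic loess normalization. DDX17 gave 9.77 and 9.77 after BRPF3 siRNA, against 9.92 and 9.84 after control siRNA. Its difference was -0.11 ± 0.08 (95% interval -0.30 to 0.09, adjusted p = 0.379). The DDX17 difference was -0.07 without control siRNA replicate 1, -0.009 under quantile and -0.029 under cyclic loess normalization. DDX41, DDX23, DDX46, the counterpart of yeast Prp5, and DDX42 had differences from -0.16 to -0.07 and did not pass. DHX40, whose role is left unstated, gave 10.57 and 10.60 after BRPF3 siRNA, against 10.61 and 10.53 after control siRNA (0.01 ± 0.08, adjusted p = 0.924).

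**Figure D2:**
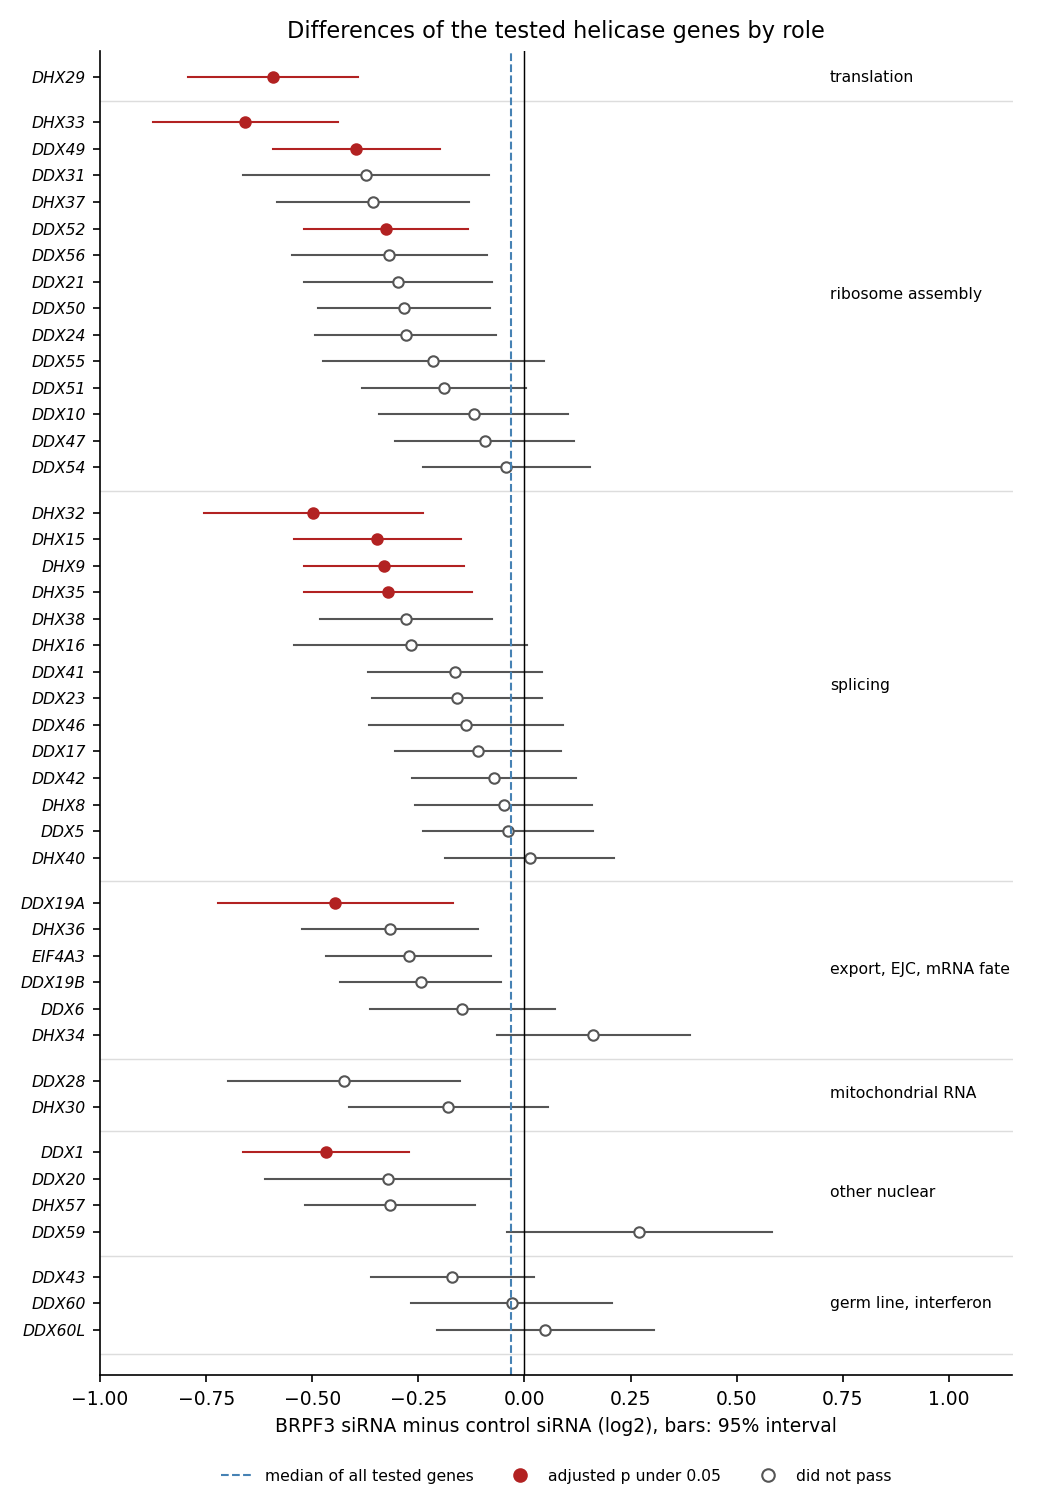
Difference between BRPF3 siRNA and control siRNA (log2, horizontal axis) of the 44 tested helicase genes with 95% intervals, grouped by role, with filled red points for the 10 that fell and open points for the 34 that did not pass. Most points lie left of 0 and of the dashed line at the median of all tested genes (-0.03). The 14 ribosome assembly genes are all left of 0, as are 55.1% of all tested genes.

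Helicases of export, the exon junction and the fate of cytoplasmic mRNA gave 1 fall among 6 tested members, with a median of -0.26. That is 16.7% fallen, against 9.44% of all tested genes. DDX19A, a homolog of the helicase that strips export factors from mRNA at the nuclear pore, gave 8.11 and 8.37 after BRPF3 siRNA, against 8.64 and 8.73 after control siRNA. It fell 1.36-fold (-0.45 ± 0.11, adjusted p = 0.0496), the call closest to the threshold. Its near-identical neighbour DDX19B gave 8.00 and 8.05 after BRPF3 siRNA, against 8.28 and 8.26 after control siRNA (-0.24 ± 0.08, adjusted p = 0.0850). The share of each gene in these signals is uncertain.

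EIF4A3, the core helicase that clamps the exon junction complex onto spliced mRNA, gave 9.48 and 9.54 after BRPF3 siRNA, against 9.81 and 9.76 after control siRNA. The groups did not overlap, and the difference of -0.27 ± 0.08 did not pass (adjusted p = 0.0691). DHX36, which resolves G-quadruplexes, gave 9.39 and 9.38 after BRPF3 siRNA, against 9.64 and 9.77 after control siRNA (-0.32 ± 0.08, adjusted p = 0.0572). DDX6, a repressor of translation and a core part of P-bodies, gave 10.71 and 10.79 after BRPF3 siRNA, against 10.83 and 10.97 after control siRNA (-0.15 ± 0.09, adjusted p = 0.296). The DDX6 difference was -0.08 without control siRNA replicate 2, -0.058 under quantile and -0.053 under cyclic loess normalization. DHX34, a factor of nonsense-mediated decay, was on the other side of 0, with 7.68 and 7.63 after BRPF3 siRNA, against 7.58 and 7.41 after control siRNA (0.16 ± 0.09, adjusted p = 0.269). It was 0.08 without control siRNA replicate 2 and 0.25 without control siRNA replicate 1.

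Both measured helicases of mitochondrial RNA had separated arrays, lower after BRPF3 siRNA as for 35.9% of all tested genes. Neither passed, where 15.8% of all tested genes did. DDX28, which assembles the large mitochondrial ribosomal subunit, gave 6.40 and 6.62 after BRPF3 siRNA, against 7.02 and 6.85 after control siRNA (-0.42 ± 0.11, adjusted p = 0.0544). DHX30, of the mitochondrial RNA granules, differed by -0.18 ± 0.09 (adjusted p = 0.239).

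Of 4 other nuclear members DDX1 fell. DDX1 belongs to the complex that ligates spliced tRNAs, and it gave 10.11 and 10.16 after BRPF3 siRNA, against 10.63 and 10.58 after control siRNA, a fall of 1.38-fold (-0.47 ± 0.08, adjusted p = 0.0214). DHX57, whose role is left unstated, gave 8.17 and 8.25 after BRPF3 siRNA, against 8.50 and 8.56 after control siRNA (-0.32 ± 0.08, adjusted p = 0.0519), the nearest miss of the family. DDX20, the Gemin3 subunit of the SMN complex that assembles small nuclear ribonucleoproteins, differed by -0.32 ± 0.12 (adjusted p = 0.116). DDX59, a gene mutated in an orofaciodigital syndrome, had the highest difference of the family, with 5.36 and 5.13 after BRPF3 siRNA, against 4.84 and 5.11 after control siRNA (0.27 ± 0.13, adjusted p = 0.194). That value was 0.14 without control siRNA replicate 1 and 0.16 without BRPF3 siRNA replicate 1.

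Members of the germ line and of the interferon response gave 0 calls in limma's test among 3 tested, and 0 at an unadjusted p under 0.05. Of all tested genes 15.8% were called and 34.6% had an unadjusted p under 0.05, in either direction. The cancer-testis gene DDX43 differed by -0.17 ± 0.08 (adjusted p = 0.186). The interferon-inducible DDX60 and its relative DDX60L gave -0.03 ± 0.10 and 0.05 ± 0.10, with overlapping arrays, and these neighbours share sequence. The testis genes DDX25, DDX4 (VASA) and DDX53 were below the intensity bound and were not tested. Their 6 values on the BRPF3 siRNA arrays ran from 2.99 to 3.61, against 3.25 to 3.56 on the control siRNA arrays.

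Both BRPF3 siRNA arrays lay below both control siRNA arrays for 36 of the 44 tested members (81.8%), against 35.9% of all tested genes, and above them for DDX59 and DHX34 (4.55%), against 27.3%. A difference of at least 1.5-fold with separated arrays was reached by DHX33 and DHX29 (4.55% of members, against 2.89% of all tested genes). An unadjusted p under 0.05 with a lower value after BRPF3 siRNA was found for 23 members (52.3%), against 19.8% of all tested genes.

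Brightness moved with these differences. Of 3 equal bands of tested genes by mean signal, the brightest held 32 of the 44 members, and there 13.6% of all 3566 genes fell and the median was -0.07. The 32 members in it had a median of -0.28, with 9 fallen (28.1%). In the middle band 1 of 10 members fell (10.0%, median -0.26), against 9.40% of all its genes (median -0.02), and the dimmest band held DDX59 and DDX60, with 0 fallen. The SD over all probe sets was 2.33 and 2.34 on the BRPF3 siRNA arrays, against 2.39 and 2.39 on the control siRNA arrays. When the 4 distributions were made equal by quantile normalization, 4 members fell (DHX33, DHX29, DDX1 and DDX49; 9.09%, against 6.71% of all tested genes) and 0 rose, with a median of -0.19, against 3.6e-05 over all tested genes. The same 4 fell under cyclic loess normalization. How far the spread of signals on the arrays makes up the members' differences was not tested beyond these values.

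**Figure D3:**
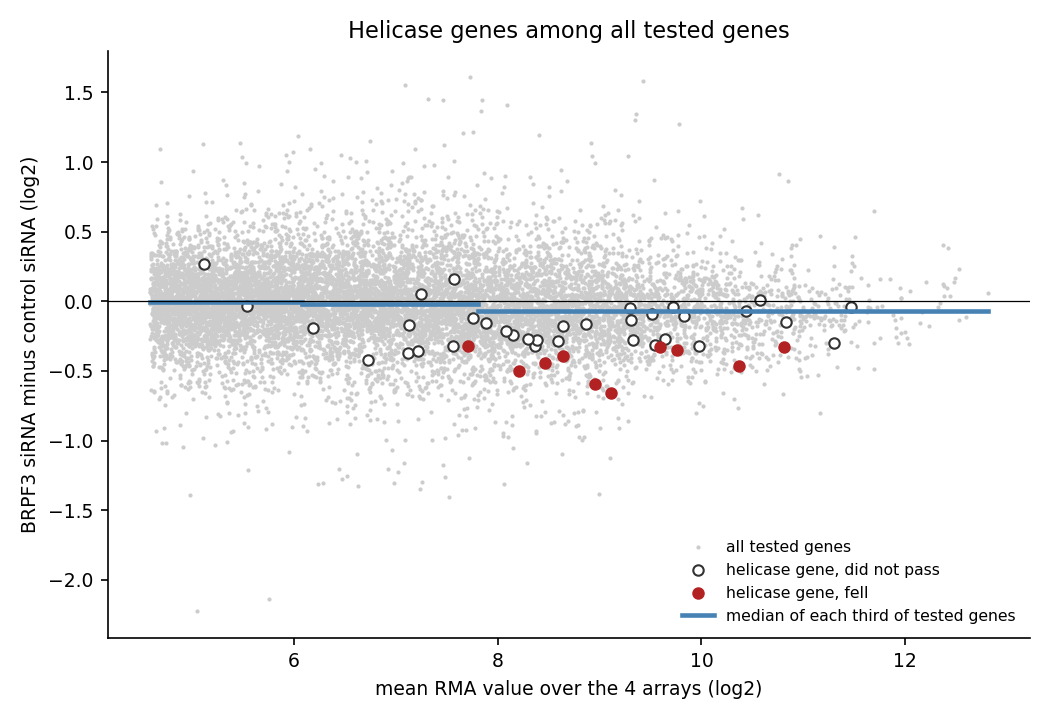
Difference between BRPF3 siRNA and control siRNA (log2, vertical axis) against the mean RMA value over the 4 arrays (log2, horizontal axis) for 10696 tested genes (grey), with the 44 helicase genes on top and a blue line at the median of each of 3 brightness bands. The medians go from -0.01 in the dimmest band to -0.07 in the brightest, and the 10 fallen helicase genes (red) lie below them.

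Each single array also weighed on the calls. Without control siRNA replicate 1 or replicate 2, 0 members and 0 of all tested genes were called in limma's test, with 15 and 18 members and 2446 and 2477 of all tested genes at an unadjusted p under 0.05. Without BRPF3 siRNA replicate 1 the differences of DHX33, DHX29, DHX32, DDX1 and DDX19A were -0.64, -0.64, -0.62, -0.44 and -0.31. Without BRPF3 siRNA replicate 2 they were -0.67, -0.55, -0.38, -0.50 and -0.58. The members' median stayed between -0.27 and -0.22 when 1 array was left out, with 39 to 42 of the 44 below 0.

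**Figure D4:**
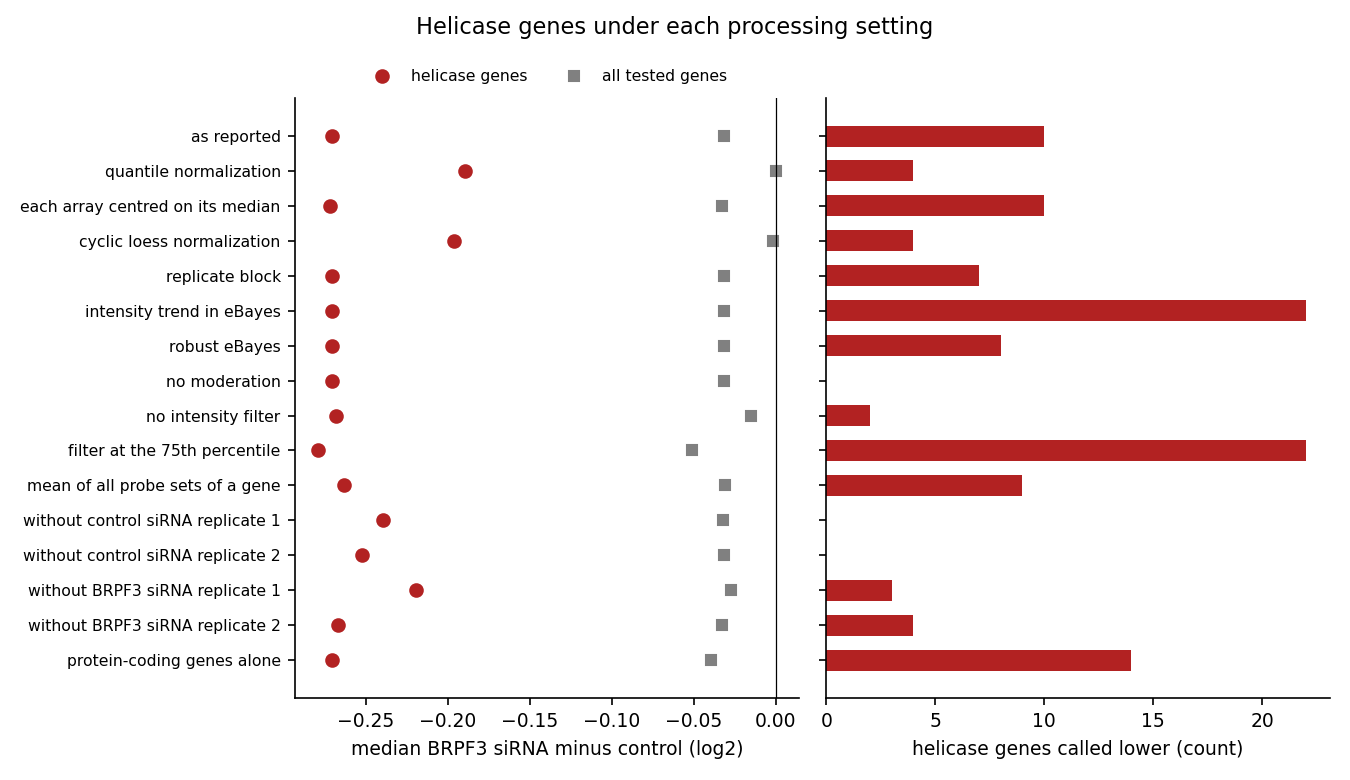
Left, median difference between BRPF3 siRNA and control siRNA (log2) of the tested helicase genes (red circles) and of all tested genes (grey squares) under each processing setting. Right, the number of helicase genes called lower under it, which runs from 0 (without moderation or without a control siRNA array) to 22, while the helicase median stays between -0.28 and -0.19.

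Partners of the helicases were taken from lists chosen by function, with earlier results of these data known. The list of G-patch proteins held cofactors of DEAH box helicases and other RNA-binding proteins with that domain. Among its 17 tested genes 2 fell (11.8%, near the 9.44% of all tested genes) and 0 rose. The difference was below 0 for 16 of the 17 (94.1%), against 55.1% of all tested genes, with a median of -0.17, against -0.03. GPATCH2, a partner of DHX15, gave 6.56 and 6.45 after BRPF3 siRNA, against 7.08 and 7.33 after control siRNA (-0.70 ± 0.11, adjusted p = 0.0186), and GPATCH11 gave 8.04 and 8.31 after BRPF3 siRNA, against 8.61 and 8.67 after control siRNA (-0.47 ± 0.11, adjusted p = 0.0443). Among 11 genes of mRNA export around the DEAD box helicase of the TREX complex 2 fell (18.2%, against 9.44%) and 0 rose (median -0.09). These were SARNP (-0.57 ± 0.09, adjusted p = 0.0165) and ZC3H11A (-0.34 ± 0.08, adjusted p = 0.0401), both proteins bound to that complex.

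Among 9 tested partners of the EIF4A helicases in translation initiation 2 rose (22.2%, against 6.32% of all tested genes) and 0 fell (median -0.08). EIF4E3, an atypical cap-binding protein, gave 8.33 and 8.13 after BRPF3 siRNA, against 7.71 and 7.70 after control siRNA (0.53 ± 0.10, adjusted p = 0.0258). EIF4EBP2, a repressor that sequesters the cap-binding protein EIF4E, gave 10.32 and 10.25 after BRPF3 siRNA, against 9.96 and 9.86 after control siRNA (0.38 ± 0.08, adjusted p = 0.0382). EIF4B, which stimulates the helicase activity of EIF4A, differed by -0.31 ± 0.10 (adjusted p = 0.0837).

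The other lists gave 0 calls in limma's test, and their shares with an unadjusted p under 0.05 in either direction were near the 34.6% of all tested genes. Among 7 tested genes of the exon junction complex and nonsense-mediated decay 2 had an unadjusted p under 0.05, and differences ran from -0.33 (CWC22, which delivers EIF4A3 to the spliceosome; adjusted p = 0.0583) to 0.23 (RBM8A, a core subunit of the exon junction complex; adjusted p = 0.106). Among 10 partners of DDX6 4 had an unadjusted p under 0.05, from the decapping cofactor EDC3 (-0.30 ± 0.10, adjusted p = 0.0919) to the decapping enzyme DCP2 (0.25 ± 0.10, adjusted p = 0.143). Among 8 RNA helicases of other families 3 had an unadjusted p under 0.05, and differences ran from -0.28 (SKIC2, a helicase of the cytoplasmic exosome; adjusted p = 0.0601) to 0.18 (HELZ2, adjusted p = 0.338), with a median of -0.13.

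Markers of other cell types were also measured, and their signals were summed on the linear scale. Of 6 epithelial markers with values, 5 were tested and ESRP1 was under the bound. KRT18 fell (-0.49 ± 0.09, adjusted p = 0.0231), CLDN4 (-0.53), KRT8 (-0.05), KRT19 (0.04) and EPCAM (0.27, with separated arrays) did not pass. The sum was 1534 and 1433 after BRPF3 siRNA, against 1901 and 1829 after control siRNA, and without KRT18 it was 523.6 and 506.3 after BRPF3 siRNA, against 526.2 and 491.4 after control siRNA, so the groups then overlapped.

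Of 3 leukocyte markers LAPTM5 fell (-0.88 ± 0.13, adjusted p = 0.0170), SPI1 did not pass (0.08, with separated arrays) and CD14 was under the bound. Their sum was 107.3 and 110.0 after BRPF3 siRNA, against 148.1 and 130.1 after control siRNA, and without LAPTM5 it was 69.3 and 66.5 after BRPF3 siRNA, against 64.8 and 62.9 after control siRNA. Of 3 fibroblast markers LUM fell (-0.80 ± 0.08, adjusted p = 0.00878), THY1 did not pass (0.21, with separated arrays) and DCN was under the bound. Their sum was 184.5 and 191.8 after BRPF3 siRNA, against 193.7 and 193.8 after control siRNA, and without LUM it was 150.2 and 156.7 after BRPF3 siRNA, against 134.0 and 132.5 after control siRNA. Without the 1 gene that fell, both of these sums were higher after BRPF3 siRNA. Each gene left out of a sum, KRT18 included, was chosen by its call in these same data. In the leukocyte and fibroblast lists 2 genes then remained, 1 of them under the bound. Of 4 endothelial markers 0 passed limma's test (0 at an unadjusted p under 0.05), PECAM1 and KDR were under the bound, and the sum was 186.5 and 174.8 after BRPF3 siRNA, against 196.5 and 181.8 after control siRNA. The part of these markers in the helicase differences was not tested.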

How the data were processed

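Total RNA from 2 BRPF3 siRNA and 2 control siRNA samples of U2OS cells, grouped by title, was hybridised to Affymetrix whole-transcript arrays. The deposited table holds log2 values for 53617 probe sets, made by the authors with RMA (background correction, normalization between arrays, summary of probes) per the submitters' processing notes. The sources used here do not give its version, its settings or how probe sets were defined, and no further transformation was applied.

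A platform annotation gave 1 gene symbol to 16098 probe sets, several to 0, and left 37519 unnamed here. All 16098 matched RefSeq (GRCh38.p14) gene identifiers. Each gene was represented by its brightest probe set (mean of 4 arrays), and 10696 of 14884 genes reached a mean of 4.59, the median over probe sets, and were tested. The test was limma 3.58.1 (R 4.3.3; lmFit, then eBayes without trend or robust fitting; two-sided), with 2 residual and 3.81 prior degrees of freedom and Benjamini-Hochberg adjustment over all tested genes. With 2 arrays against 2 no exact permutation test can come near 0.05 (the smallest share of splits is 33.3%), so the calls rest on variance shared between genes.

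Members, lists and tests were chosen with earlier results of these data known. Named with values were the called members, the 4 lowest and 4 highest of the others by moderated t, and members fixed by name. Further members are named with a difference to complete a role. In the partner lists the called genes, or else the highest and lowest, are named, and EIF4B and markers were named after their values were seen. Alternatives were quantile, median and cyclic loess normalization, the replicate number as a block, trend, robust or no moderation, no filter or one at the 75th percentile, the mean of probe sets, an adjusted p under 0.1 and leaving out each array. Protein-coding genes alone were added after the data were seen. Sequences are from RefSeq's promoter table, where 44 of the 47 members had a window.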

Additional observations from a re-analysis of the deposited data

How the results depend on the processing

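The number of fallen helicase genes, 10, moved to 4 under quantile and 4 under cyclic loess normalization, to 22 with an intensity trend, 22 with the filter at the 75th percentile, 22 at an adjusted p under 0.1, 2 without an intensity filter and 0 without moderation (16 members at an unadjusted p under 0.05), and lay between 0 and 4 when 1 array was dropped. It was 7 with the replicate number as a block (DHX9, DDX52 and DHX35 lost their calls), and 0 members rose under each of these settings. The labels do not say that a number marks a shared batch. Same-numbered arrays correlated at 0.14 in their deviations from the group means, over all tested genes. Swapping the numbers within 1 group would only turn the sign of this value, and whether the numbers mark a batch was not tested. Over all tested genes the count of 1686 moved to 2645 with a trend, 1 without moderation, 409 without a filter and 2877 at an adjusted p under 0.1, and lay between 0 and 791 when 1 array was dropped. The share of these calls that fell, 59.9%, was 48.4% after quantile and 49.0% after cyclic loess normalization. The helicase median of -0.27 moved to -0.19 and -0.20 under those 2 normalizations and lay between -0.27 and -0.22 when 1 array was dropped. Among named genes, DDX5, at -0.04, turned to 0.069 (quantile) and 0.064 (cyclic loess) and lay between -0.081 and 0.0044 when 1 array was dropped. DDX60L, at 0.05, lay between -0.041 and 0.139 and DHX40, at 0.01, between -0.029 and 0.054 in that case. None of these 3 genes was called. DHX33 and DHX29 kept their calls under 12 of 15 settings, DDX1 under 10, DDX49 under 9, DHX32 under 8, DHX15 under 7, DDX19A, DDX52 and DHX9 under 6 and DHX35 under 5. The share of all tested genes that fell moved too. The 22 fallen members were 50% of those tested with the intensity trend, where 15.04% of all tested genes fell. With the filter at the 75th percentile they were 53.7%, against 20.7%, and at an adjusted p under 0.1 they were 50%, against 15.5%. Without an intensity filter 4.26% of members fell, against 1.5% of all genes in that test. With protein-coding genes alone, a test chosen after seeing the data, 14 members fell (31.8%, against 11.7% of all genes in that test). Signal over background limits dim genes most. Some of these settings use fewer or more genes or arrays and others use the same, and the cause of the moves was not tested.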
